A study of Arabidopsis thaliana with 12 samples.

Results

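The response to the stem cell regulator WUSCHEL (WUS) that needed no newly made protein was measured in *Arabidopsis thaliana* shoot apices in which protein synthesis was blocked. SAMs, the apices that hold the stem cells of the shoot, came from 28-day-old plants of the *ap1-1;cal1-1* double mutant carrying *35S::WUS-GR*, and every group had this genotype. The double mutant forms inflorescence meristems in place of flowers, so that its apices yield much meristem tissue. The 35S promoter drives the fusion protein throughout the plant, so the values describe WUS activity in all cells of the apex and not in its own domain alone. One group of 3 arrays followed treatment with 10 µM dexamethasone (Dex) and 10 µM cycloheximide (Cyc) together for 4 h (Dex+Cyc), and the other group of 3 arrays followed 10 µM Cyc alone for 4 h (Cyc). A further 3 arrays after 10 µM Dex alone and 3 after mock treatment, both for 4 h, gave the response with protein synthesis intact. RNA was pooled from the plants of a treatment, and the labels give the samples numbers within each group but leave unsaid whether each came from plants of its own. The p-values therefore measure the spread between these RNA samples alone, and that spread may be technical. Loci were kept where the mean signal of the Cyc or of the Dex+Cyc arrays was at least 100, with 1 probe set each, and 14186 of 22595 loci passed.

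WUS is a homeodomain transcription factor that is made in the organizing centre of the meristem and keeps the cells above it as stem cells. Those stem cells express *CLV3*, whose secreted peptide acts through receptor kinases to restrict *WUS*, and the loop between the genes holds the size of the stem cell pool steady. In the fusion used here a steroid-binding part of the rat glucocorticoid receptor (GR) keeps WUS in the cytoplasm until Dex binds it, after which WUS enters the nucleus. Cyc stops ribosomes, so that a transcript that still responds to Dex does so without a newly made intermediate protein. Cyc also stabilizes many short-lived transcripts and induces stress genes, which is why Dex+Cyc was compared with Cyc alone. How completely Cyc blocked translation was not measured on these arrays. Dex-treated plants lacking the transgene were not analysed here, which means that Dex itself and WUS cannot be told apart, and in whole apices fewer cells of a type and less RNA per cell cannot be told apart.

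Signals are MAS5 values, a brightness per probe set on a linear scale that the authors set to a trimmed mean of 500 on every array. The array medians were 218 to 222 in Cyc and 224 to 236 in Dex+Cyc, and log2 signals on arrays of one group correlated at 0.964 to 0.984 across the loci that passed the minimum. Of the meristem markers listed, *CLV3* and *KNAT1* had a named probe set here, and their summed signal was 1346 to 1748 on the Cyc arrays and 976 to 1185 on the Dex+Cyc arrays. Both genes were themselves called, in opposite directions, so the sum shows that meristem transcripts were present but cannot compare the tissue between the groups. The green tissue marker *RCA*, the Rubisco activase gene, stood at 1664 to 2047 and 1882 to 2240.2, with a log2 fold change, given with its standard error (SE), of 0.16 (SE = 0.11, adjusted p = 0.482). Single markers of xylem (*IRX3*), root epidermis (*MYB66*) and anther tapetum (*AMS*) did not reach the minimum signal, and no epidermis marker had a named probe set here. At the minimum itself, *AT5G18840* was just inside with means of 100.1 in Cyc and 55.1 in Dex+Cyc, and *AT4G00530* was just outside with 99.7 and 99.3.

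Dex changed 151 of 14186 loci while protein synthesis was blocked, which is 1.06% of the loci tested. A locus was called where limma's moderated test gave an adjusted p under 0.01 (Benjamini-Hochberg over all 14186) and the change was at least 2-fold. Downregulation was the more frequent direction, with 103 loci lower (0.726%) and 48 higher (0.338%). Most changes were small, since 84 of the lower and 33 of the higher loci moved by 2- to 3-fold, while 3 and 7 moved by at least 4-fold. The upregulated loci were dim under Cyc, with a median signal of 130 that became 339 in Dex+Cyc, and 17 of them passed the minimum only through their Dex+Cyc mean. The filter set the direction of those 17, which include *AT1G12010*, *OPT7*, *AT1G18280*, *AT1G49500*, *AT1G67750*, *ANNAT4*, *AT3G01570*, *INT2*, *CYP72A13*, *COR15A*, *COR15B*, *DOG1* and *MYB0*. Arrays apart, adjusted p-values and held calls given for them below are no support for that direction. The downregulated loci were brighter, with a median of 833 in Cyc and 324 in Dex+Cyc. Among them 9 passed only through their Cyc mean, which set their direction too, including *PAD3*, *AT1G51805* and *AT1G62480*. Across all loci tested the median log2 fold change was 0.04, with a 5th percentile of -0.55 and a 95th percentile of 0.54. All 151 called loci had the 3 arrays of one group apart from the 3 of the other, as had 27.2% of the loci tested (15.3% with Dex+Cyc above and 11.9% with Dex+Cyc below).

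**Figure D1:**
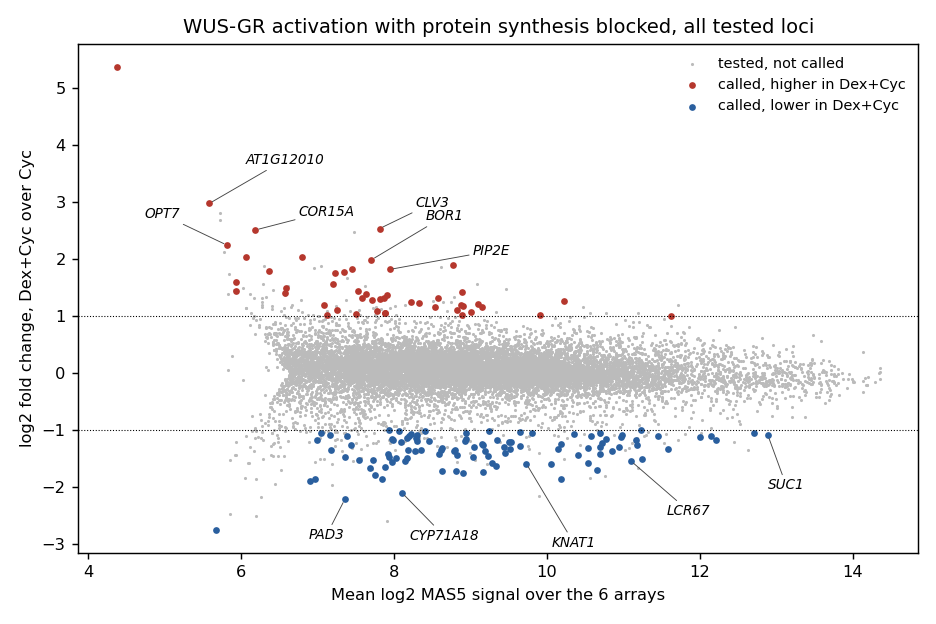
Log2 fold change of Dex+Cyc over Cyc (vertical axis) against the mean log2 signal of the 6 arrays (horizontal axis) for the 14186 loci tested, with the 48 upregulated loci in red, the 103 downregulated loci in blue and dotted lines at 1 and -1. The red points lie mostly on the dim side and the blue points on the bright side of the cloud, and most called loci lie just beyond the dotted lines.

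Many calls depended on single arrays. Without Dex+Cyc replicate 3 the count was 57 and without Cyc replicate 1, 2 or 3 it was 97, 75 or 83, whereas leaving out Dex+Cyc replicate 1 or 2 gave 136 or 108. Dex+Cyc replicate 3 also had the highest median signal of these arrays, 236, and the part of this in the lost calls was not tested. Of the 151 loci, 46 were called in all 12 fits with 1 array left out, 12 of them upregulated and 34 downregulated. Another 31 lost their call in 1 to 3 fits and 74 in 4 or more, and for the loci described at length the arrays whose removal ended the call are given. Of the 151, 67 had a locus name only through the study's own lists of changed loci, so counts of named genes in a class or list are not independent evidence of its direction.

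*CLV3*, the gene of the stem cell peptide, had the largest increase of any named locus but the ACC oxidase gene *AT1G12010*. Its signal was 51.1, 134 and 119 on the Cyc arrays and 572, 443 and 623 on the Dex+Cyc arrays. Every Dex+Cyc array was thus far above every Cyc array, and the log2 fold change was 2.53 (SE = 0.37, adjusted p = 0.00293). The call ended without Dex+Cyc replicate 1 (adjusted p = 0.0113) or without Dex+Cyc replicate 3 (adjusted p = 0.0177). Without Cyc, *CLV3* went from 53.1, 126 and 78.4 in mock to 738, 1043 and 954 in Dex, a log2 fold change of 3.48 (SE = 0.37, adjusted p = 0.000201). The difference between both responses was -0.95 (SE = 0.52, limma adjusted p = 0.551).

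Of the 25 genes listed for the CLAVATA-WUS pathway and its partners, 8 had a named probe set and passed the minimum, and *CLV3* was the only one called. The median log2 fold change of the 8 was -0.56, against 0.04 over all loci, and 0.03 over the 3 whose name did not come from the study's lists of changed loci. *HAM4*, a GRAS-family regulator that acts with WUS in stem cell maintenance, came closest to a call among the others. It had 227, 233 and 199 on the Cyc arrays and 132, 117 and 100.3 on the Dex+Cyc arrays. The arrays did not overlap, and the log2 fold change of -0.92 (SE = 0.14, adjusted p = 0.00333) was short of 2-fold. Without Cyc its log2 fold change was -2.69 (SE = 0.14, adjusted p = 2.85e-06), and the difference between both responses was 1.77 (limma, adjusted p = 0.00424). *POL*, a phosphatase gene downstream of the CLAVATA receptors, and *BAM1*, a receptor kinase gene related to *CLV1*, had log2 fold changes of 0.03 and -0.21 (limma, adjusted p = 0.933 and 0.423). The *FAF* genes *FAF1*, *FAF2* and *FAF3*, which can alter shoot meristem size, had -0.63, -0.85 and -0.94, with adjusted p of 0.185, 0.132 and 0.0642.

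Homeobox genes of the KNOX class moved in opposite directions. *KNAT1*, also known as BREVIPEDICELLUS, keeps cells of the meristem and inflorescence stem undifferentiated, and it fell. Its signal was 1295, 1520.2 and 1629 in Cyc and 612, 544 and 353 in Dex+Cyc. The lowest Cyc array was far above the highest Dex+Cyc array, and the log2 fold change of -1.59 (SE = 0.19, adjusted p = 0.00134) was called in all 12 fits with 1 array left out. *KNAT3*, a KNOX gene of the class expressed in differentiating organs, rose from 223, 202 and 207 to 512, 356 and 660.4. These arrays did not overlap either, with a log2 fold change of 1.23 (SE = 0.20, adjusted p = 0.00483), but the call ended in 5 of the 12 fits, without any one of the Cyc arrays or Dex+Cyc replicate 1 or 3 (adjusted p up to 0.0234). *BLH5*, a BELL homeobox gene whose products pair with KNOX proteins, was at 209 ± 40.6 (SD, n = 3) in Cyc and 109 ± 22.8 in Dex+Cyc, with a log2 fold change of -0.93 (SE = 0.21, adjusted p = 0.0239). Of the 21 KNOX and BELL genes listed, 4 passed, 1 rose and 1 fell, with a median of -0.70.

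**Figure D2:**
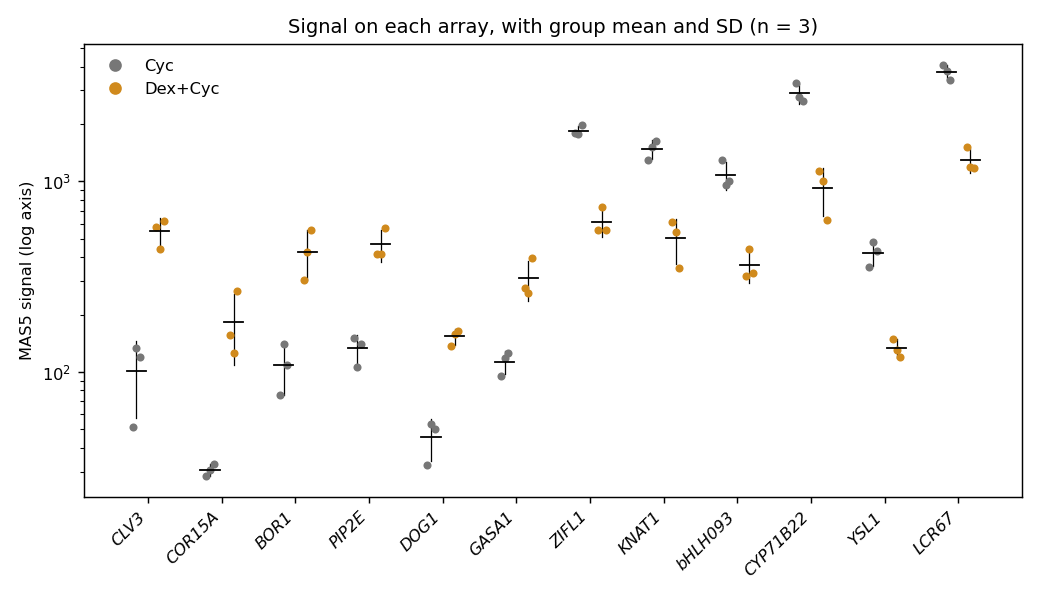
Signal on each array (log axis) of 12 called loci in Cyc and Dex+Cyc, with the mean and SD of 3 arrays. In each panel the 3 arrays of one group lie apart from the 3 of the other, with *CLV3*, *COR15A*, *BOR1*, *PIP2E*, *DOG1* and *GASA1* higher and *ZIFL1*, *KNAT1*, *bHLH093*, *CYP71B22*, *YSL1* and *LCR67* lower in Dex+Cyc.

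Transcription factor genes made up 16 of the called loci with a class assigned here, 7 higher and 9 lower. The classes were assigned after the values had been seen, and 11 of the 16 loci owed their name to the study's lists of changed loci. How many of all loci tested belong to each class was not counted, so the size of a class has no share to compare with. Directions within every class are to be read beside the 103 lower and 48 higher among all called loci. *bHLH093*, a basic helix-loop-helix gene, had the smallest adjusted p of those that fell. It had 1286, 962 and 998 on the Cyc arrays and 317, 442 and 329 on the Dex+Cyc arrays. The groups were well apart, the log2 fold change was -1.58 (SE = 0.15, adjusted p = 0.00068), and the call held in all 12 fits. *RAP2.2*, an ethylene response factor gene known for its role in low-oxygen and carotenoid responses, fell from 6100.0, 6706 and 5396 to 3015, 2958 and 2406. It was the brightest of the regulators that fell, it did not overlap, and it too held in all 12 fits (-1.12 on the log2 scale, SE = 0.12, limma adjusted p = 0.000804). *HSFB4*, a heat shock factor gene that patterns the root stem cell niche, and *bZIP44* fell by 1.56 and 1.37 on the log2 scale. *WRKY7*, *MYB122*, *BZIP9* and the bHLH gene *AT3G06590* fell by 1.29, 1.17, 1.16 and 1.02. Each of these 6 calls ended in at least 4 of the 12 fits.

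Among the regulators that rose, *AT5G07160*, a bZIP gene, had 182, 216 and 297 in Cyc and 914, 1082 and 608 in Dex+Cyc. The arrays were apart, with a log2 fold change of 1.90 (SE = 0.31, adjusted p = 0.00541), although the call ended when any one of these 6 arrays was left out (adjusted p up to 0.0259). The probe set read only 1.12 to 1.67 in mock and 1.31 to 2.76 in Dex, so its signal was seen under Cyc alone. *MYB0*, the *GL1* gene that starts trichome formation, went from 29.7, 28.5 and 51.4 to 99.5, 105 and 115. It did not overlap, its log2 fold change was 1.59 (SE = 0.26, adjusted p = 0.00565), and it lost its call without Cyc replicate 1 or 2 or any one Dex+Cyc array (adjusted p up to 0.0309). *PAP2* (*IAA27*), an Aux/IAA repressor of auxin responses, rose from 637, 1034 and 702 to 1830.5, 1731 and 2009, a log2 fold change of 1.26 (SE = 0.16, adjusted p = 0.00164). Its call ended only without Dex+Cyc replicate 3 (adjusted p = 0.0103). *FBH3*, a bHLH activator of the flowering gene *CO*, rose by 1.11 and *AT5G50010*, another bHLH gene, by 1.31 (limma, adjusted p = 0.00132 and 0.00903). Of the 29 *Aux/IAA* genes listed, 11 passed and *PAP2* was the only one called, with a median of 0.34. *IAA16* and *ATAUX2-11* had -0.91 and -0.75 with adjusted p of 0.00132 and 0.00739, short of 2-fold, so the members of the family did not share a direction.

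Genes of organ polarity set the upper and lower sides of a lateral organ apart. The study tested WUS binding to short double-stranded oligonucleotides from the regulatory regions of several of them. The oligonucleotides of the 4 genes measured here are shown because they carry the homeodomain core TAAT, given in capitals wherever TAAT or its reverse complement ATTA occurs.
KAN1-1100: tactgatattTAATgtatatttatctct
KAN1 1050: tcttacacTAATactatatttacacatg
KAN2 1080: ggATTAATcgttcacttattttgttt
KAN2 1650: tgtcagTAATagTAATattgagta
YAB3 500: agtTAATTAATgtgtgatATTAATtggc
AS2 750: ccaatatcttTAATactacTAATtgcaa
AS2 -480: aacgtTAATcatcaTAATttctataacc
The names are those of the study's oligonucleotide list, and its text names a *KAN2* oligonucleotide by a position that is not in this list, so that the position of *KAN2* 1650 is unsettled. The core occurred 1 time in each *KAN1* sequence, 2 times in each *KAN2* and *AS2* sequence and 5 times in the *YAB3* sequence, counting both strands and overlaps. These counts are matches of letters and do not measure binding. The study itself reports that oligonucleotides of *KAN1*, *KAN2*, *AS2* and *YAB3* bound WUS protein in gel-shift assays. Mutating TAAT cores, though not every one of them, abolished the binding. It also reports that regions of these genes were enriched in chromatin precipitated with antibodies against WUS.

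None of these 4 genes was called from the MAS5 signals used here, and all lay on the lower side. The study normalized the same arrays by another method (GCRMA) and names all 4 among transcription factor genes repressed with Cyc. It also reports repression of selected genes by quantitative PCR on wild-type apices with Cyc, and of a reporter through a *KAN1* promoter element. What part the normalization has in the missing calls was not tested. *KAN2*, a GARP-family gene of the abaxial organ side, had 835, 1034 and 995 in Cyc and 566, 555 and 477 in Dex+Cyc. The arrays were apart, and the log2 fold change of -0.84 (SE = 0.13, adjusted p = 0.00341) passed the p threshold but was short of 2-fold. *KAN* (*KAN1*), its closest relative here, had 169, 269.9 and 267 and 82.2, 135 and 47.7. Those groups did not overlap, yet the Dex+Cyc arrays spread widely and the log2 fold change of -1.51 (SE = 0.33, adjusted p = 0.0221) missed the p threshold. Without Dex+Cyc replicate 2 it would have been called (adjusted p = 0.00788). *YAB3*, a YABBY gene of the abaxial side, went from 299, 276 and 329 to 177, 180.2 and 139.9, with no overlap and a log2 fold change of -0.87 (SE = 0.19, adjusted p = 0.0237). *AS2*, an adaxial LOB-domain gene, was at 104, 142 and 127 and 76.3, 66.4 and 55.7, with a log2 fold change of -0.91 (SE = 0.40, adjusted p = 0.237). Of the 18 polarity genes listed, 10 passed the minimum and 0 were called. *KAN1* and *AS2* passed only through their Cyc mean, so that a lower value in Dex+Cyc was set by the filter. The 8 that reached the minimum in both groups had negative log2 fold changes with a median of -0.54, and -0.50 over the 7 not named through the study's lists. The auxin response factor gene *ARF4* had -0.59 (adjusted p = 0.0121), and *AFO* (*FIL*), *PHV* and *YAB5* were the nearest to 0 at -0.26, -0.20 and -0.09.

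Type-A *ARR* genes, negative regulators of cytokinin signalling, gave no call under Cyc. *ARR7* had 5368, 7566 and 6415 in Cyc and 5224, 4826 and 3762 in Dex+Cyc. All 3 Dex+Cyc arrays were below the Cyc arrays, but the lowest Cyc and the highest Dex+Cyc array differed by little, and the log2 fold change was -0.49 (SE = 0.21, adjusted p = 0.228). *ARR15* overlapped, with 208, 279 and 174 against 146, 262 and 116 and a log2 fold change of -0.40 (SE = 0.39, adjusted p = 0.647). *ARR4* lay on the other side, at 839, 1079 and 855 and 1605, 1514 and 2090.2, with no overlap and a log2 fold change of 0.91 (SE = 0.20, adjusted p = 0.0236). Without Cyc, *ARR7* fell by a log2 fold change of -1.60 (SE = 0.21, adjusted p = 0.000673), and the difference between its responses was 1.12 (adjusted p = 0.172), which was not called. Under Cyc alone *ARR7* was bright, 6449.7 ± 1099 (SD, n = 3) beside 1761 ± 197 in mock.

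Boundary and floral genes gave 2 calls. *MYB0*, which passed the minimum only through its Dex+Cyc mean, was the only one of 9 tested boundary and cell fate genes to be called. The organ boundary gene *CUC1* had a log2 fold change of 0.77 (SE = 0.14, adjusted p = 0.0107). *NAM* (*ANAC018*), which the study places among genes of developmental processes, had 0.97 (SE = 0.21, adjusted p = 0.0203). *EMS1*, a receptor kinase gene of anther cell fate, had 0.87 (SE = 0.18, adjusted p = 0.0164), while *BOP2* and *MYB117* had -0.86 and -0.80 (limma, adjusted p = 0.0105 and 0.025). Among the 6 floral and inflorescence genes tested, *UFO*, an F-box gene that acts with LEAFY, fell from 455, 408 and 391 to 157, 201 and 184. The arrays were far apart relative to their spread, with a log2 fold change of -1.21 (SE = 0.22, adjusted p = 0.0083), but the call ended without any one array but Dex replicate 2 or Dex replicate 3 (adjusted p up to 0.0345). *CAL*, *PI*, *SEP1*, *AGL24* and *PUCHI* had log2 fold changes from -0.48 to 0.12, and none of them was called. Of the 6 vascular, stomatal and ground tissue genes tested, *bHLH093* was the only one called, while *DOF2.4*, *AT4G24060* and *NAC083* had -0.74, -0.98 and -0.66 with adjusted p of 0.117, 0.00842 and 0.0566. *GRF6*, a growth-regulating factor gene, was at 140.2, 136 and 130.4 in Cyc and 67.7, 89.3 and 33.6 in Dex+Cyc, with a log2 fold change of -1.21 (SE = 0.30, adjusted p = 0.0382). It passed the minimum only through its Cyc mean, so the filter set its direction. The 5 auxin transport genes tested gave no call, with *NPY3* at -0.96 and *ABCB1* at -0.91 (limma, adjusted p = 0.00235 and 0.00862), and the 5 organ growth and 2 cell cycle genes tested gave none either, with *ICK6* (*KRP3*), a gene for an inhibitor of cyclin-dependent kinases, at -0.80 (SE = 0.14, adjusted p = 0.00692).

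Several genes of tryptophan-derived and other specialized metabolism fell. Indole compounds made from tryptophan include camalexin, an antimicrobial phytoalexin, the indole glucosinolates and part of the plant's auxin. *PAD3*, the cytochrome P450 gene of the last step of camalexin synthesis, showed the largest decrease among loci with a symbol. It had 351, 360.3 and 349.9 in Cyc, where the 3 arrays nearly coincided, and 113, 64.5 and 60.4 in Dex+Cyc. The log2 fold change was -2.22 (SE = 0.29, adjusted p = 0.00178), and the call ended without Cyc replicate 2 or Dex+Cyc replicate 3 (adjusted p up to 0.011). *CYP71A18*, close in sequence to the camalexin enzyme CYP71A13, fell from 442, 666 and 633 to 149.6, 139 and 113. It did not overlap, with a log2 fold change of -2.10 (SE = 0.35, adjusted p = 0.0059), but leaving out any one of the 6 arrays ended the call (adjusted p up to 0.0339). *CYP71A13* itself had 163, 234 and 121 and 90.0, 35.2 and 42.5, and its spread left the log2 fold change of -1.70 (SE = 0.63, adjusted p = 0.153) without a call.

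*ASA1*, the gene of anthranilate synthase, which commits chorismate to tryptophan, was bright and tightly measured. Its signal was 3635, 3044 and 3569 in Cyc and 1833, 1739 and 1529 in Dex+Cyc. The change was just over 2-fold, -1.01 (SE = 0.11, adjusted p = 0.000803), so quantile normalization or leaving out Cyc replicate 1 or 3 or Dex+Cyc replicate 3 brought it under 2-fold. *TSA1*, the tryptophan synthase α gene, and *AT2G04400*, the indole-3-glycerol phosphate synthase gene, had -1.02 and -0.52 (adjusted p = 0.0145 and 0.0394). *TAR2*, an aminotransferase gene of auxin synthesis, had -0.89 (SE = 0.16, adjusted p = 0.00759), short of 2-fold, and the auxin synthesis genes *YUC2* and *YUC4* had 0.00 and -0.13 (adjusted p = 0.998 and 0.737). Of the 26 genes of the list, 9 passed and 3 fell (*ASA1*, *NIT4* and *PAD3*). *PAD3* and *CYP71A13* passed only through their Cyc mean, which set them on the lower side, and the 7 that reached the minimum in both groups had a median of -0.89, with 2 called. None of the 3 that fell is independent of the study's lists, and the 3 members that are had a median of -0.13.

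Further cytochrome P450 genes fell beside them. *CYP71B22* had 3295, 2759 and 2647 in Cyc and 1128, 1000.2 and 627 in Dex+Cyc, and *CYP71B23*, its neighbour, had 1665, 1953 and 1774 and 801, 656 and 678. Neither overlapped, their log2 fold changes were -1.70 and -1.34 (limma, adjusted p = 0.00132 and 0.00149), and both calls held in all 12 fits. *FMO*, a flavin-containing monooxygenase gene, fell from 681, 1132 and 888 to 263, 300.2 and 228, also without overlap and in all 12 fits (-1.75, adjusted p = 0.00088). *CYP71B7* fell by 1.55 on the log2 scale. *CYP706A3* and *AT5G44630*, a sesquiterpene synthase gene beside it, fell by 1.26 and 1.30 from means of 3615 and 3099.9. In all, 12 called loci were placed in this class, 11 lower and 1 higher, with 8 of them named through the study's lists. The exception was *CYP72A13*, a cytochrome P450 gene of another family, which rose from 38.7, 42.8 and 31.3 to 103, 98.9 and 100.3 (1.44, adjusted p = 0.00326).

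A gene of ethylene synthesis rose, and a pair of genes that dispose of the cyanide released with ethylene fell. The last step of ethylene synthesis, catalysed by ACC oxidase, releases cyanide, which β-cyanoalanine synthase and nitrilase 4 detoxify. *AT1G12010*, an ACC oxidase gene, rose from 49.4, 8.73 and 11.7 to 118, 123 and 167. Its Cyc arrays were dim, with replicate 1 well above the others, and the call of the log2 fold change of 2.97 (SE = 0.49, adjusted p = 0.00568) ended without Dex replicate 3, Cyc replicate 2 or 3 or any one Dex+Cyc array (adjusted p up to 0.0323). *NIT4*, the nitrilase gene, fell from 417, 316 and 354 to 130.3, 127 and 119 without overlap and in all 12 fits, a log2 fold change of -1.52 (SE = 0.15, adjusted p = 0.000695). *CYSC1*, the β-cyanoalanine synthase gene, fell from 6715 ± 870.1 to 3149 ± 598 (SD, n = 3), by 1.1 on the log2 scale.

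Carriers and channels were the largest class among the called loci, 26 in all with 19 lower and 7 higher, and 18 of the 26 owed their name to the study's lists. The share of carriers among all loci tested was not counted. Among all 151 called loci 103 were lower and 48 higher, so the balance of directions in this class was near that of the whole. Metal and boron carriers were found in both directions. *YSL1*, a carrier of metals bound to nicotianamine, fell from 353, 481 and 431 to 149, 131 and 120.2. The groups were far apart and the call held in all 12 fits, with a log2 fold change of -1.65 (SE = 0.14, adjusted p = 0.000317). *ZIFL1*, a carrier of the major facilitator superfamily, fell from 1794, 1764 and 1966 to 555, 736 and 552, likewise in all 12 fits (-1.60, adjusted p = 0.000733). *AT1G79520*, a cation efflux gene, rose from 307, 282 and 281 to 697, 743 and 891, without overlap and in all 12 fits (1.41, adjusted p = 0.000564).

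Boron enters cells through boric acid channels and is loaded into the xylem by borate exporters, and a gene of each kind was called. *BOR1*, the exporter, rose from 75.9, 141 and 108 to 303, 427 and 553. The arrays were apart despite their spread, the log2 fold change was 1.98 (SE = 0.25, adjusted p = 0.00149), and the call held in all 12 fits. *NIP5;1*, the channel, fell from 1006, 1282 and 1018 to 561, 451 and 346 (-1.30, adjusted p = 0.00396), and its call ended without any one Cyc array or Dex+Cyc replicate 2 or 3 (adjusted p up to 0.0211).

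Water channels split in the same way. *PIP2E*, a plasma membrane aquaporin gene, rose from 151, 106 and 141 to 417, 415 and 570.3, a log2 fold change of 1.82 (SE = 0.22, adjusted p = 0.00132) that held in all 12 fits. *GAMMA-TIP*, an aquaporin gene of the vacuolar membrane, fell from 2972, 2321 and 2585 to 1424, 950.3 and 885, a log2 fold change of -1.30 (SE = 0.16, adjusted p = 0.00149) that also held in all 12. *DELTA-TIP*, another vacuolar aquaporin gene, had a similar change of -1.25, but its Cyc arrays spread from 1536 to 2430.1 and its call ended without any one array but Dex+Cyc replicate 1 (adjusted p up to 0.0419).

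Sugar and sulfate carriers and the POT family were among those that fell. The sugar-proton symporter genes *STP4* and *SUC1* fell by 1.67 and 1.09 on the log2 scale, *SUC1* from the highest level of any carrier called, 11164 ± 2071 to 5319 ± 1466 (SD, n = 3). The call of *STP4* ended without mock replicate 3, Dex replicate 2, any one Cyc array or Dex+Cyc replicate 2 or 3 (adjusted p up to 0.0349), and that of *SUC1* without any one array but mock replicate 2 or Dex+Cyc replicate 1 (adjusted p up to 0.0333). *AST91*, a sulfate transporter gene, fell from 673, 774 and 720.0 to 301, 256 and 135 (-1.72, adjusted p = 0.00341), and any one Cyc array left out ended that call. Genes of the POT family of nitrate and peptide carriers gave 4 calls, all lower, with *AT3G16180*, *AT1G52190*, *AT1G68570* and *AT5G13400* at log2 fold changes of -1.43, -1.29, -1.27 and -1.0. Of these, *AT3G16180* (from 2707 ± 85.1 to 1012 ± 158) and *AT1G68570* held in all 12 fits. *AT1G25530*, an amino acid transporter gene, fell in all 12 as well, from 931, 983 and 745 to 330.2, 294 and 321 (-1.48, adjusted p = 0.000804).

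Some members of the auxin efflux, ABC and MATE families fell too. *AT1G76520*, of the auxin efflux carrier family, had 1047, 1044 and 1049 in Cyc, almost the same on each array, and 419, 273 and 271 in Dex+Cyc. Its log2 fold change of -1.74 (SE = 0.19, adjusted p = 0.000804) was the largest decrease of any carrier and held in all 12 fits. *ABCB21* and *ABCG4* fell by 1.51 and 1.18 on the log2 scale. The MATE efflux genes *AT1G33110*, *AT3G21690* and *AT5G52450* fell by 1.2, 1.05 and 1.03. On the side that rose, the oligopeptide transporter genes *OPT7* and *OPT4* had log2 fold changes of 2.24 and 1.2 (limma, adjusted p = 0.0043 and 0.00519). The call of *OPT7* ended without Cyc replicate 1 or 3 or Dex+Cyc replicate 2 or 3 (adjusted p up to 0.0182), and that of *OPT4* without any one Cyc array or Dex+Cyc replicate 1 or 3 (adjusted p up to 0.0245). *INT2*, an inositol transporter gene, rose from 48.6, 59.2 and 66.6 to 177, 128 and 185 in all 12 fits (1.48, adjusted p = 0.00134), and *UMAMIT6*, of a family of amino acid exporters, rose by 1.05.

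Several genes of the cold, dehydration and abscisic acid response rose. *COR15A* and *COR15B* are neighbouring genes whose chloroplast proteins protect membranes during freezing. *COR15A* had 28.5, 30.6 and 32.9 in Cyc and 157, 126 and 267 in Dex+Cyc, and *COR15B* had 85.2, 108 and 88.4 and 272, 321 and 413. Both were apart on all arrays, with log2 fold changes of 2.51 and 1.82 (limma, adjusted p = 0.00138 and 0.00114), and both held in all 12 fits. They passed the minimum only through their Dex+Cyc mean, which set their direction, so these values are no support for it. Probe sets of near-identical genes can share signal, so the pair may not be read independently. *DOG1*, the seed dormancy gene, rose from 32.4, 53.1 and 50.2 to 137, 158 and 164, a log2 fold change of 1.79 (SE = 0.17, adjusted p = 0.00068) in all 12 fits. Its direction was set by the filter in the same way. *ABF3*, a bZIP gene that binds abscisic acid response elements, rose from 169, 126 and 164 to 348, 300.0 and 317 (1.08, adjusted p = 0.00341), but was under 2-fold on the log2(value + 32) scale and lost its call without Cyc replicate 2 or 3 or any one Dex+Cyc array (adjusted p up to 0.0174).

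Of the 11 tested genes of the abscisic acid and dehydration list 4 were called, 0 of them lower. *COR15A*, *COR15B*, *DOG1* and *COR47* passed the minimum only through their Dex+Cyc mean, so that the filter set their direction, and 3 of the 4 called genes are among them. The 7 that reached the minimum in both groups, all named through the study's lists, had positive log2 fold changes with a median of 0.96, against 0.04 over all loci and 57.1% of loci positive, and *ABF3* was the only one of them called. *LTI78* (*RD29A*), a widely used marker of dehydration and cold, was at 139.8, 314 and 199.6 and 486, 793 and 1071, with no overlap and a log2 fold change of 1.85 (SE = 0.36, adjusted p = 0.0128). *RD26*, *ERD14* and *DREB2A* had 1.01, 0.96 and 0.76 (adjusted p = 0.0202, 0.00294 and 0.0502). *AT4G30650*, of a low temperature and salt responsive family, rose by 1.15 outside the list. On the other side, *TMAC2*, a repressor of abscisic acid responses, fell from 822, 649.6 and 663 to 284, 269 and 267, and *PYL4*, an abscisic acid receptor gene, fell from 7142 ± 638 to 3195 ± 503 (SD, n = 3), with log2 fold changes of -1.37 and -1.17 (adjusted p = 0.00289 and 0.00184). Stress genes that Cyc itself is known to raise gave no call in 10 tested, with a median of 0.06 over the 9 that reached the minimum in both groups. Among them *STZ*, a zinc finger gene, was at 19151 to 21697 in Cyc and 15947 to 19897 in Dex+Cyc.

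Small secreted and defence proteins gave 5 decreases and 4 increases. *LCR67*, a defensin-like gene, fell from 4088, 3779.7 and 3409 to 1514, 1191 and 1175, a log2 fold change of -1.55 (SE = 0.16, adjusted p = 0.000728) that held in all 12 fits. *DIR1*, a lipid transfer protein gene of systemic resistance, fell from 2337, 2062 and 2355 to 1050.0, 1005 and 1091, with very close replicates (-1.1, SE = 0.10, adjusted p = 0.000407), and *E13L3*, a β-glucanase-related gene, fell by 1.2. *GASA1*, of the gibberellin-regulated peptides, rose from 95.4, 118 and 125 to 276, 260.4 and 394, apart on all arrays and in all 12 fits (1.44, adjusted p = 0.00205). The lipid transfer protein gene *AT1G18280* rose from 44.8, 35.6 and 22.9 to 165, 124 and 121, a log2 fold change of 2.03 (SE = 0.28, adjusted p = 0.0023), while *AT1G62500* and *AT1G62790* of the same wider family fell by 1.18 and 1.19. *AT2G38870*, a protease inhibitor gene, rose by 1.02.

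Receptors, kinases and phosphatases gave 8 decreases and 2 increases. *RLP12*, a receptor-like protein gene, fell from 527, 391 and 409.6 to 165, 135 and 80.3 (-1.85, adjusted p = 0.00244), and the leucine-rich repeat kinase gene *AT1G51805* fell from 203, 301 and 202 to 101, 48.4 and 48.3 (-1.90, adjusted p = 0.00608). Both were apart, but the call of *RLP12* ended without Cyc replicate 1 or 3 (adjusted p up to 0.011), and that of *AT1G51805* without mock replicate 3, Dex replicate 3, any one Cyc array or Dex+Cyc replicate 2 or 3 (adjusted p up to 0.0347). *AT1G11330*, *NIK2* and *AT1G69730*, further receptor-like kinase genes, fell by 1.23, 1.09 and 1.11 in all 12 fits. The cysteine-rich receptor-like kinase genes *CRK28* and *CRK29* fell by 1.05 and 1.35. The phosphatase gene *AT3G05640* and the kinase gene *AT4G02630* rose by 1.01 and 1.16.

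Genes of sugar, cell wall and lipid metabolism gave 8 decreases and 1 increase. *AT5G22460*, a hydrolase gene, fell from 409.9, 421 and 374 to 159.9, 133 and 73.5, and *AT2G26440*, a pectin methylesterase gene, from 1165, 1243 and 1095 to 471, 494 and 420.4. Both held in all 12 fits, at -1.79 and -1.34 (limma, adjusted p = 0.00135 and 0.000804). The sucrose-cleaving genes *SUS3* (sucrose synthase) and *ATBFRUCT1* (cell wall invertase) fell by 1.26 and 1.36. *BGLU11*, *GLIP5*, *CSLE1* and *AT5G03610* fell by 1.45, 1.48, 1.2 and 1.05. The pectate lyase gene *AT1G67750* was the exception, and rose from 96.3, 108 and 52.7 to 257, 267 and 303 (1.75, adjusted p = 0.00328). Its call ended without any one of the Dex+Cyc arrays.

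**Figure D3:**
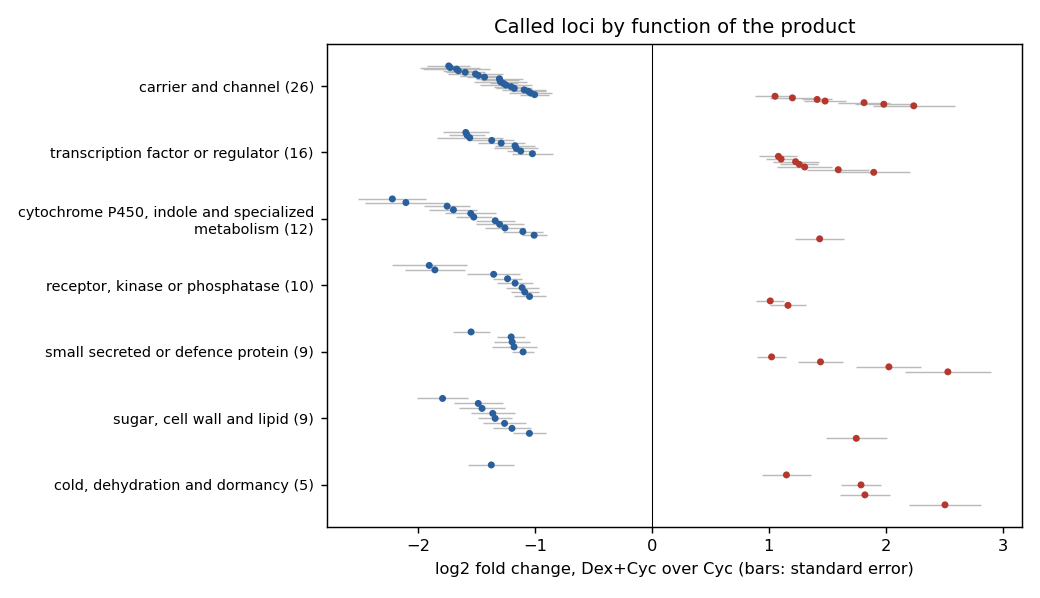
Log2 fold change of Dex+Cyc over Cyc with its standard error for the 87 called loci that were placed in one of 7 classes after their values had been seen, red for higher and blue for lower. Carriers and channels form the largest class, cytochrome P450 and indole genes lie on the lower side except 1, and cold, dehydration and dormancy genes on the higher side except 1.

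The other 64 called loci were 47 named ones placed in no class and 17 without a name. Of the named ones, *AT4G21870*, a small heat shock protein gene, fell from 2223, 2615 and 1911 to 614, 634 and 592, and *AT1G44760* from 2328, 2177 and 2236 to 859, 861 and 760.5. Both were far apart and held in all 12 fits (-1.86 and -1.44, adjusted p = 0.00132 and 0.000317). *ANNAT4*, an annexin gene, rose from 104, 94.1 and 70.2 to 279, 329 and 303, also in all 12 (1.78, adjusted p = 0.000728), as did the plastocyanin gene *PETE1* (1.25) and the oleosin-family gene *AT3G01570* (1.57). *ANNAT4* and *AT3G01570* passed the minimum only through their Dex+Cyc mean, so the filter set their direction. *AT1G49500* rose by 2.04 and *AT1G62480* fell by 1.87. The call of *AT1G49500* ended without mock replicate 3, Cyc replicate 1 or 2 or any one Dex+Cyc array (adjusted p up to 0.028), and that of *AT1G62480* without any one array but Cyc replicate 2 or Dex+Cyc replicate 1 (adjusted p up to 0.0378). Of the unnamed probe sets, 257890_s_at went from 2.90, 1.42 and 8.17 to 135, 132 and 132, the largest log2 fold change measured, 5.36 (SE = 0.69, adjusted p = 0.00171). Its Cyc values lie far below the minimum signal, where MAS5 values scatter, and the call ended without Dex+Cyc replicate 3 (adjusted p = 0.0101). The probe set 260140_at had the largest decrease, from 70.1, 178 and 188 to 23.0, 22.1 and 15.2 (-2.75, adjusted p = 0.00333), and its call ended without Cyc replicate 2 or 3 or Dex+Cyc replicate 2 or 3 (adjusted p up to 0.019).

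The same loci were then read on the 6 arrays without Cyc, which took no part in choosing them except through the shared estimate of each locus' spread. Of the 48 upregulated loci, 47 (97.9%) had a positive log2 fold change in Dex over mock, 44 (91.7%) had all 3 Dex arrays above all 3 mock arrays, as 16.7% of all loci tested had, and 34 were called, as 1.19% of all loci were. Of the 103 downregulated loci, 96 (93.2%) were on the lower side without Cyc, 87 (84.5%) had all Dex arrays below all mock arrays beside 16.0% of all loci, and 55 were called beside 1.89% of all loci. The median log2 fold changes were 1.31 with and 1.25 without Cyc for the upregulated, and -1.31 and -1.04 for the downregulated loci. No locus called under Cyc was called in the opposite direction without it. Each effect has its own control, and the median signals of the called loci in mock were 243 for the upregulated and 599 for the downregulated ones.

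**Figure D4:**
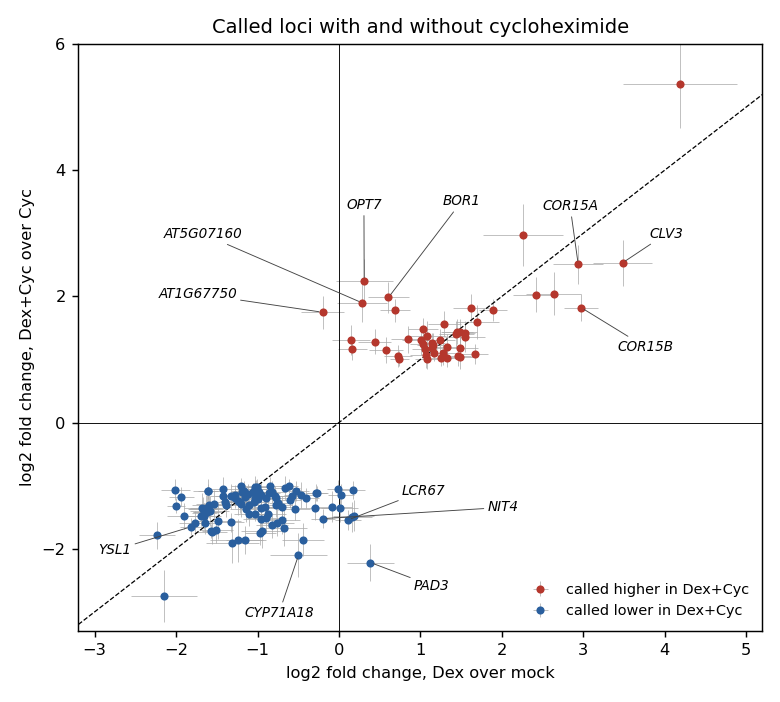
Log2 fold change of Dex+Cyc over Cyc (vertical axis) against that of Dex over mock (horizontal axis) for the 151 loci called under Cyc, with standard errors and a dashed line where both are equal. The upregulated loci lie in the upper right but for *AT1G67750*, and 96 of 103 downregulated loci lie in the lower left, with *PAD3*, *LCR67*, *NLA* and *CRK29* to the right of 0.

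A smaller group fell under Cyc without a matching fall being measured in Dex over mock. *PAD3* went from 25.9, 22.3 and 11.9 in mock to 21.2, 30.5 and 23.7 in Dex, values far below those under Cyc. *NIT4* had 49.97, 55.4 and 68.4 and 57.4, 51.5 and 42.7, and *LCR67* had 68.1, 73.1 and 101 and 90.5, 79.0 and 87.8, so that its Cyc level of 3759 ± 339.8 (SD, n = 3) stood far above both. In all 3 genes the mock and Dex arrays overlapped. The difference between the responses with and without Cyc was -1.65 for *LCR67*, -2.61 for *PAD3* and -1.33 for *NIT4* on the log2 scale (limma interaction, adjusted p = 0.0181, 0.0349 and 0.0365). With the unnamed 248564_at these were the only 4 of the 151 with an adjusted p under 0.05 for the difference, which 0.282% of all loci had. Of the 4, only 248564_at had mock and Dex means above the minimum signal, 188 and 211. The 151 were chosen on one side of this difference, and none of them was among the 7 loci (0.0493%) called for the difference.

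*CRK28*, *CRK29* and *NLA*, a ubiquitin ligase gene of nitrogen limitation, had log2 fold changes of -0.01, 0.01 and 0.02 without Cyc. Their differences, -1.03, -1.36 and -1.17, had adjusted p of 0.0635, 0.138 and 0.0789. *BOR1* was at 846, 695 and 637 in mock and 1024, 1301 and 996 in Dex, a smaller change of 0.61 (SE = 0.25, adjusted p = 0.134) from a much higher level. *OPT7* likewise had 190.0, 175 and 171 and 228, 207 and 229, with 0.31 (SE = 0.35, adjusted p = 0.619). For *BOR1* and *OPT7* the difference between the responses was 1.38 and 1.93 (adjusted p = 0.157 and 0.158), which the replicates did not separate from 0.

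**Figure D5:**
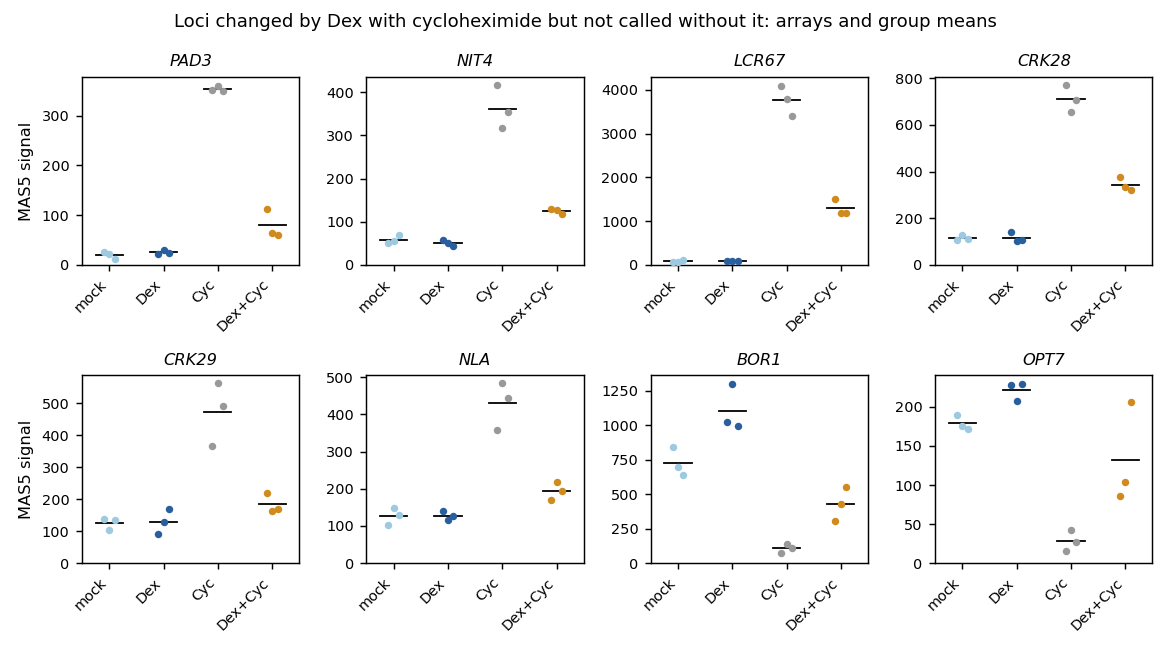
Signal (linear axis from 0) on every mock, Dex, Cyc and Dex+Cyc array, with the mean of 3 arrays as a line, for *PAD3*, *NIT4*, *LCR67*, *CRK28*, *CRK29*, *NLA*, *BOR1* and *OPT7*. The first 6 genes are brightest on the Cyc arrays and lower in Dex+Cyc, with mock and Dex arrays overlapping, while *BOR1* and *OPT7* are dimmest in Cyc and higher in Dex+Cyc.

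Some of the loci that changed under Cyc lay side by side on their chromosome. In the order of protein-coding genes of the RefSeq table, 134 of the called loci could be placed, and 6 pairs lay at most 2 steps apart, 5 of them next to each other. How many such pairs as many loci drawn from all those tested would give was not counted. Because 103 of the 151 called loci were lower, many pairs would share a direction in any case. Each pair moved in one direction: *COR15B* with *COR15A* upward, and *CYP71B22* with *CYP71B23*, *CYP706A3* with *AT5G44630*, *CRK28* with *CRK29*, *BGLU11* with *NLA* and *AT1G62480* with *AT1G62500* downward. Of these, the *COR15*, *CYP71B* and *CRK* pairs are duplicated genes of one family, whose probe sets can share signal, while *CYP706A3* and *BGLU11* lie beside genes of another kind.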

How the data were processed

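RNA of 12 samples, 3 per treatment, was hybridized to Affymetrix ATH1 arrays, which read a gene through several short probes that form a probe set. The authors deposited MAS5 signals, which are linear intensity values, and brought the trimmed mean of every array (2% left out at either end) to 500. MAS5 and affy are named in the submitters' processing notes without versions. Arrays have no sequencing depth, and the precision is limited by their number.

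Of 22810 probe sets, 64 controls were left out. A platform table, with the supplementary tables used for names only, gave 14540 probe sets a locus (421 of them from lists of changed loci in the study alone), and 1 probe set per locus, the one with the highest mean, left 22595. The minimum signal of 100 left 14186, of which 328 passed only through Dex+Cyc and 235 only through Cyc. Log2 signals were fitted with limma 3.58.1 (R 4.3.3) as 4 group means over 12 arrays (8 residual and 3.39 prior degrees of freedom), with p-values adjusted by Benjamini-Hochberg. The difference between the Dex effects with and without Cyc was a contrast of the same fit. The replicate SD of log2 signals had a median of 0.26 in the dimmest and 0.14 in the brightest of 5 brightness groups. On simulated data for Dex+Cyc versus Cyc over 14186 loci, 40%, 86%, 92% and 98% of 50 loci each changed by 2-, 3-, 4- and 6-fold were called, and 2 of 13986 unchanged loci. A call also needed an estimate of at least 2-fold, so that cut-off itself limits the share called at a true 2-fold change.

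Members and lists were chosen with earlier results of these data known. The rule for named genes took the 15 called loci with a name and the largest change in each direction, the called members of each list or otherwise the member with the smallest adjusted p, and the genes the study names for Dex+Cyc, of which *SCR* had no named probe set here. A locus that the rule took is not reported here. Other genes come from the classes of called loci and were picked once their values were known. As alternatives, quantile normalization, median centring, log2(value + 32), other filters, the replicate number as a block, every probe set, 6 arrays only, a variance trend, array weights, other thresholds, a test for a change above 1.2-fold and leaving out each array were tried. Promoter sequences were not analysed here. Tables and plots used Python 3.11.15 with pandas 2.3.3, numpy 2.4.6 and matplotlib 3.10.9.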

Additional observations from a re-analysis of the deposited data

Results flagged for a closer look

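The response to Dex differed between the arrays with and without Cyc, by limma's test of the difference itself, at 7 of 14186 loci (0.0493%), and none of these is among the 151 loci called under Cyc. In the same limma test 1537 loci had an unadjusted p under 0.05, a count that makes no allowance for the 14186 tests. An adjusted p under 0.05 was reached by 40 loci (0.282%). The values below are the log2 fold change of Dex+Cyc over Cyc minus that of Dex over mock.

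*HAM4*, of the GRAS regulators that act with WUS, had means of 219.8 in Cyc and 116 in Dex+Cyc, and of 103 in mock and 15.9 in Dex. Its difference was 1.77 (adjusted p = 0.00424), with a larger fall without Cyc. *AT5G17350* had a difference of 2.09 (adjusted p = 0.00424), with means of 123 and 203 under Cyc beside 18.0 and 6.91 without it. *NIA2*, a nitrate reductase gene, had 2607 and 1729 under Cyc and 45.5 and 149 without it, a difference of -2.29 (adjusted p = 0.00424). *LBD37*, a LOB-domain repressor gene of nitrogen responses, had 1412 and 1809 under Cyc and 239 and 938 without it, a difference of -1.62 (adjusted p = 0.00761).

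*AT5G24210* had a difference of -2.50 (adjusted p = 0.00737), from 1552 and 1778 under Cyc and 8.27 and 52.4 without it. The unnamed 252367_at had -4.12 (adjusted p = 4.58e-05), from 309 and 294 under Cyc and 4.86 and 81.8 without it. The unnamed 264279_s_at had -1.57 (adjusted p = 0.00424), from 7462 and 5988 under Cyc and 519.7 and 1246 without it. In *AT5G24210*, *AT5G17350*, *NIA2* and 252367_at the mock means were below the minimum signal of 100, and what part this has in the differences was not tested.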

How the results depend on the processing

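The 151 calls (48 higher, 103 lower) were 182 with quantile normalization, 168 with median centring, 195 with log2(value + 32) and 167 from the 6 arrays alone, and 141, 141, 125 and 114 of the 151 loci were among them. Without the filter on low signals 24 were called (3 higher, 21 lower), all among the 151, with 22595 loci in the adjustment. Array weights gave 234 (87 higher), an adjusted p under 0.05 gave 245 (80 higher, 165 lower), no fold threshold 265 (97 and 168) and a test for a change above 1.2-fold 71 (21 and 50). Leaving out 1 array in turn gave 57 to 156, with 14 to 51 higher and 43 to 108 lower. The 7 calls for the difference between the Dex effects became 4 with quantile normalization, 2 without the filter, 32 at an adjusted p under 0.05, 27 with array weights, 14 with robust shrinkage to a variance trend, 1 in the test above 1.2-fold and 1 to 10 with 1 array left out. The cause of these changes was not tested. No named locus changed direction in any alternative. Of the 38 named loci called, the calls of *ASA1* (quantile normalization and log2(value + 32)), *ABF3* (log2(value + 32)), *KNAT3*, *OPT7*, *AT1G12010* and *AT1G62480* (6 arrays alone), and *AT5G07160*, *AT1G51805* and *CYP71A18* (variance trend) ended, besides 6 with the replicate number as a block (*AT5G07160*, *AT1G51805*, *AT1G49500*, *CYP71A18*, *AT1G12010* and *UFO*, adjusted p up to 0.0142), 28 without the filter, 14 in the test above 1.2-fold and 2 to 18 with 1 array left out. Between Cyc and Dex+Cyc arrays of the same replicate number, deviations from the group means correlated at 0.284, 0.258 and 0.0205. For arrays of different numbers the correlations ran from -0.275 to 0.087. Whether samples of one number shared a batch is not given by the labels and was not tested. With the replicate number as a block the counts were 135 (126 of the 151) and 4 for the difference. The search for promoter motifs that had been planned was not run.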
